A study of Mus musculus with 15 samples.

Results

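The genes described here are the 36 mouse genes of the constitutive proteasome and its activators. They were taken by name, with no measured value in the rule: a row of the count table was taken where its Ensembl gene identifier maps to 1 of 36 listed symbols, and 36 of the 78317 genes in the table matched. They comprise the 7 α subunits (Psma1 to Psma7) and the 7 constitutive β subunits (Psmb1 to Psmb7) of the barrel-shaped core particle, 6 ATPases (Psmc1 to Psmc6) and 3 other subunits (Psmd1, Psmd2 and Psmd4) of the base of the regulatory particle, 8 subunits of its lid (Psmd3, Psmd6, Psmd7, Psmd8, Psmd11, Psmd12, Psmd13 and Psmd14), 4 activators (Psme1 to Psme4) and the assembly factor Pomp. The interferon-inducible catalytic subunits Psmb8, Psmb9 and Psmb10 were left out of the list and are given only as context.

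The proteasome degrades proteins tagged with ubiquitin. The regulatory particle binds and unfolds the tagged protein with its ATPase ring and removes the ubiquitin chain, and the core particle cuts the protein in a chamber formed by its β rings, which the α rings gate. In antigen-presenting cells such as macrophages the proteasome also supplies peptides for MHC class I, and interferon-γ is known as an inducer of the immune catalytic subunits and of the PA28 activator encoded by Psme1 and Psme2. Most genes of the constitutive particle are controlled together by the transcription factor NRF1, the product of Nfe2l1.

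The libraries came from MH-S cells, a murine alveolar macrophage line transformed with SV-40, and 5 groups of 3 wells were compared after 24 h of exposure. M0 cells received medium alone, M1 cells received lipopolysaccharide (LPS) at 1 µg/mL with IFN-γ at 20 ng/mL, and M2 cells received IL-4 at 20 ng/mL. The CaP and SiO2 groups received calcium phosphate or silica microrods at 0.1 mg/mL, both built on alginate and coated with 3 double layers of protamine and carboxymethyl chitosan and named CaP-Alg-Prot/CMC(3DL) in the case of calcium phosphate and SiO2-Alg-Prot/CMC(3DL) in that of silica. Each rod well held a batch prepared independently, but all wells were seeded from 1 passage of 1 line, so the p-values measure the spread between wells of that culture. Adgre1, Cd68, Csf1r, Ptprc and Lyz2, which mark macrophages, were present in every library, whereas Siglecf and Marco, which mark resident alveolar macrophages, stayed at or below 0.478 and 2.82 CPM, that is counts scaled to a common library size. Of 13 markers of epithelial, fibroblast, T, B and endothelial cells, 12 were below 1 CPM in every library, and the exception, Pecam1, reached 1.71 CPM.

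The library totals ranged from 8459643 to 68750050 counts, with a median of 14879931. All 36 genes passed the filter on low counts and entered every test. Together they took between 1.14% and 1.94% of the counts of a library. Levels are given as CPM (counts per 1000000 counts) on library sizes scaled by the trimmed mean of M values, and fold changes come from the quasi-likelihood test of edgeR with Benjamini-Hochberg adjustment over all genes tested. A gene is called changed at an adjusted p below 0.05 with an absolute log2 fold change above 0.5.

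Per kilobase of transcript, the levels in M0 spanned a wide range. Psmb6, a catalytic β subunit, was highest at 1695 ± 193 CPM per kb (SD, n = 3), followed by Psma7 at 1618 ± 156, 2 values that lay within their spread. The median was 299 CPM per kb for the α ring, 337 for the β ring, 179 for the ATPases, 73.7 for the other base subunits and 115 for the lid. The activators lay far apart, as Psme2 stood at 503 ± 18.9 CPM per kb and Psme1 at 135 ± 17.7, while Psme3 (PA28γ, a nuclear activator) stood at 9.74 ± 1.06 and Psme4 (PA200, a large nuclear activator) at 1.24 ± 0.305. Psme4 was the lowest of the 36 genes, with 59 to 392 counts per library.

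**Figure D1:**
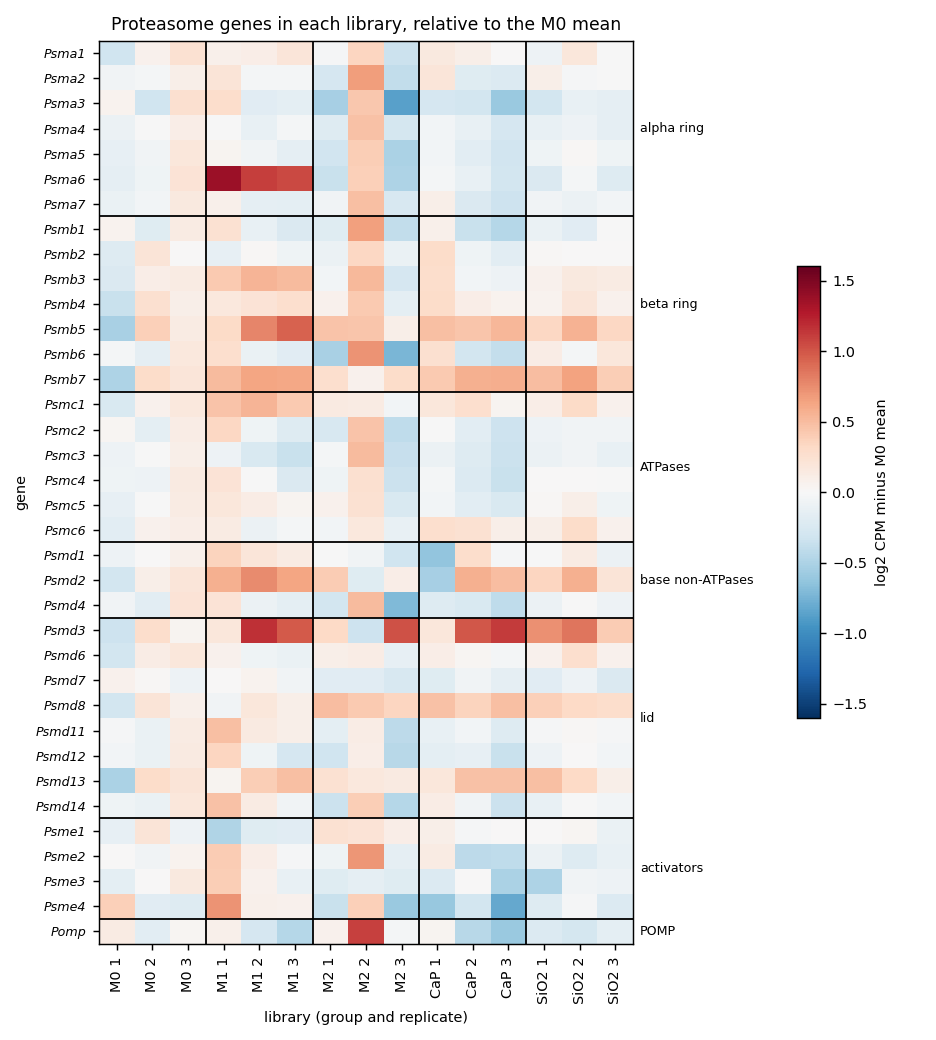
Level of each of the 36 genes in each of the 15 libraries, as log2 CPM minus the mean of the 3 M0 libraries (colour, red higher and blue lower), with genes in rows grouped by subunit type and libraries in columns grouped by condition. Psma6 is the only row that is dark red in all 3 M1 libraries, at 1.06 to 1.36, and M2 replicate 2 is red in most rows.

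The comparison of M1 with M0 asks what LPS with IFN-γ did to these genes. Of the 36 genes, 1 was called higher and 0 lower, whereas 14.1% of the 16654 genes tested were called. The called gene was Psma6. The fitted change was above 0 for 23 of the 36 genes, with a median log2 fold change of 0.05 against -0.01 over all genes tested. The 95% interval of the difference lay within 1 log2 unit of no change for 32 of 36 genes, the exceptions being Psma6, Psmb5, Psmd2 and Psmd3. In the same libraries Il1b, a target of LPS, rose by 8.69 ± 0.51 (SE) on the log2 scale and Gbp2, a target of interferon and of LPS, by 3.92 ± 0.45, with adjusted p of 8.97e-08 and 2.28e-05. These 2 genes were chosen after their values were seen.

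Psma6 encodes α1, 1 of the 7 subunits of the α ring. Its level was 284, 298 and 364 CPM in the M0 libraries and 807, 673 and 654 CPM in the M1 libraries. It was 245, 407 and 223 CPM in M2, 308, 288 and 255 CPM with CaP rods and 266, 306 and 272 CPM with SiO2 rods. The 3 M1 libraries lay above all 12 others, whose highest value was 407 CPM, and the other 4 groups overlapped. In these bulk libraries more RNA per cell and more cells that express the gene cannot be told apart. The log2 fold change was 1.18 ± 0.21 (SE) against M0, or 2.26-fold, with a 95% interval of 0.73 to 1.62 and an adjusted p of 0.00173. Fitted on the same M1 libraries, it was 1.29 ± 0.21 against M2, 1.33 ± 0.21 against CaP rods and 1.34 ± 0.21 against SiO2 rods, with adjusted p of 0.000690, 0.000691 and 0.000765. Psma6 was the only one of the 36 genes called in each of these 3 comparisons, where 16.1%, 12.7% and 10.5% of all genes tested were called. The call held in each of the 16 other settings tried for M1 against M0, with log2 fold changes of 1.07 to 1.29. Of these, the setting with no fold threshold reuses the main fit, so the call could not be lost there.

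The other 6 α subunits did not follow. Their fitted log2 fold changes in M1 ranged from -0.07 for Psma7 to 0.11 for Psma1, and their levels in M1 and M0 overlapped for each of them. As a share of the summed CPM per kb of the α ring, Psma6 made up 8.53%, 8.56% and 8.95% in the M0 libraries and 18.7%, 17.9% and 17.6% in the M1 libraries. In the 9 libraries of the other 3 groups the share was between 7.63% and 9.02%. Within the ring, Psma6 ranked 3 of 7 by CPM per kb in M0 and 2 of 7 in M1, where only Psma7 was higher. Both ranks lay within the spread. In M0, Psma6 stood at 302 ± 41.1 and Psma1 at 299 ± 56.7 CPM per kb (SD, n = 3). In M1, Psma6 stood at 683 ± 79.9 and Psma5 at 611 ± 39.3. Ranks and shares depend on the transcript length used for each gene, which was longest for Psma2 and Psma3, at 2911 and 2846 bases.

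RefSeq lists 2 start sites for Psma6, 14603 bases apart on the plus strand of chromosome 12 in the GRCm38.p6 build. The counts were made per gene against GRCm39, so they do not tell the 2 starts apart. The windows of both starts and that of Psme1 are shown because Psma6 is the gene that rose and Psme1 the gene with the largest fitted fall in M1. Each covers 250 bases before and 50 bases from the start, and capitals mark the letters that match a searched motif on either strand.
Psma6, upstream start, chr12:55383972-55384271, plus strand: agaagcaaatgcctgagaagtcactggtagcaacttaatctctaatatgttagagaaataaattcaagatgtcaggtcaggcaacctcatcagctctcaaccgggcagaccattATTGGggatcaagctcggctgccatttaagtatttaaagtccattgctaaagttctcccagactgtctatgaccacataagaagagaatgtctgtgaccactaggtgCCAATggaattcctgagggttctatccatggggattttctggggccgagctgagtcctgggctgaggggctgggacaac
Psma6, downstream start, chr12:55398575-55398874, plus strand: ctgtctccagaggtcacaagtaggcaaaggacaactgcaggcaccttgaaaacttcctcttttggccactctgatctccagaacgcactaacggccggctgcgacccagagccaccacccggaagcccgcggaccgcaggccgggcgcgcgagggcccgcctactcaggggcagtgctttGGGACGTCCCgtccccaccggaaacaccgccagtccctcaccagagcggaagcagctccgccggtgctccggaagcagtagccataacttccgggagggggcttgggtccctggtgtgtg
Psme1, chr14:55578244-55578543, plus strand: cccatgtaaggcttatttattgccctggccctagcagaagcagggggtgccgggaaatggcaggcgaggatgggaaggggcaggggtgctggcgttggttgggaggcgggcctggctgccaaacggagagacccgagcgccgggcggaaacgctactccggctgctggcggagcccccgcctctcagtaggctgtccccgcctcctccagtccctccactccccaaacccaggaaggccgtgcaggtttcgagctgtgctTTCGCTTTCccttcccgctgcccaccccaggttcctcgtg
The upstream Psma6 window holds 2 CCAAT motifs, starting 136 and 29 bases before the start, the former on the minus strand. The downstream window holds a κB motif, the binding motif of NF-κB, starting 70 bases before the start. The Psme1 window holds GAAANNGAA, the core of the interferon-stimulated response element, on the minus strand 10 bases after the start. The 2 windows of Psme2 held none of the motifs named here.

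Promoter windows were in the RefSeq table for 30 of the 36 genes. The κB motif was found for 6 of the 30 genes (20.0%), namely Psma6, Psma7, Psmd11, Psmd12, Psmd13 and Psme4, and for 9.55% of the 27025 genes with a window. It was added to the search after the values of Psma6 were seen, and Psma7, Psmd11, Psmd12, Psmd13 and Psme4 were not called in M1. GAAANNGAA was found for 6 genes, Pomp, Psmb3, Psmb4, Psmc2, Psmd4 and Psme1, against 9.76% of all genes. TGACNNNGC, the core of the antioxidant response element that NRF1 and NRF2 bind, was found for 5 genes (16.7%), Psmb5, Psmb6, Psmc6, Psmd12 and Psme4, and for 3781 of the 27025 genes. CCAAT was found for 11 genes (36.7%), against 41.1%. A match is a match of letters and was not tested as a binding site.

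Along chromosome 12, RefSeq places Ppp2r3c and Prorp before Psma6, a ribosomal protein pseudogene inside it, and Nfkbia as the next protein-coding gene after it. Nfkbia, which encodes the NF-κB inhibitor IκBα, was called higher in M1, by 2.13 ± 0.17 (log2, SE) with an adjusted p of 1.09e-06. Ppp2r3c was not called, at 0.33 ± 0.15 and an adjusted p of 0.156. In M2, where Nfkbia was called lower at -0.64 ± 0.16, Psma6 was at -0.11 ± 0.21 and was not called. No value is given for Prorp. Nfkbia and Ppp2r3c were not in the fixed gene lists, and a link between their changes and that of Psma6 was not tested.

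**Figure D2:**
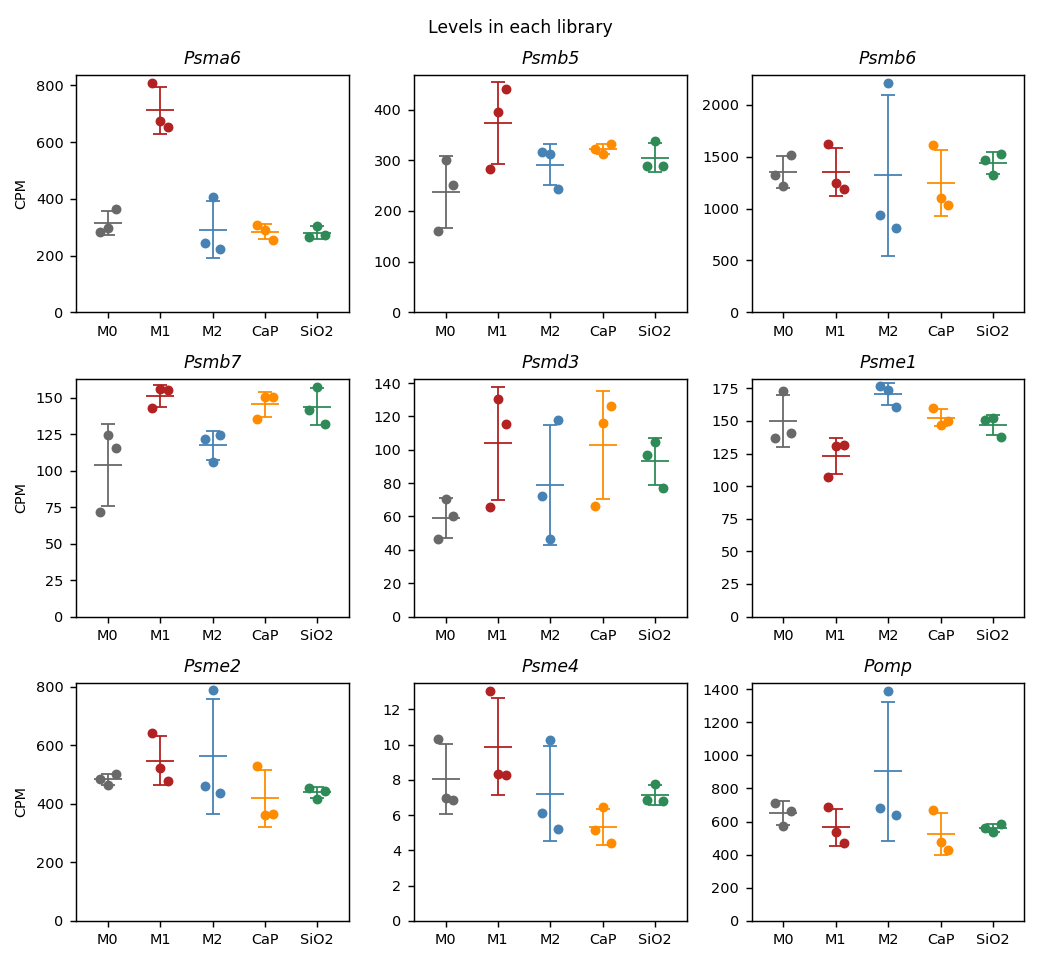
CPM (y axis, from 0) of 9 genes in each library (points) of the 5 groups (x axis), with the mean and SD of the 3 libraries. The M1 points of Psma6 stand apart at 807, 673 and 654 CPM, Psmb5, Psmb7 and Psmd3 have their lowest or next to lowest point in M0 replicate 1, and Psmb6, Psme2 and Pomp have their highest in M2 replicate 2.

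PA28 is a ring of the Psme1 and Psme2 products that opens the core particle. Psme1 (PA28α) was 137, 173 and 141 CPM in M0 and 107, 131 and 132 CPM in M1. All 3 M1 libraries lay below the M0 libraries, and below all 12 other libraries as well. The log2 fold change was -0.28 ± 0.14 with a 95% interval of -0.58 to 0.01 and an adjusted p of 0.199, which misses the threshold, and without M0 replicate 2 it was -0.17. Against M2, whose libraries held 177, 174 and 161 CPM, it was -0.47 ± 0.14 with an adjusted p of 0.0327, past the p threshold but short of the fold threshold. Psme2 (PA28β) was 485, 465 and 501 CPM in M0 and 641, 522 and 479 CPM in M1, and the groups overlapped. Its log2 fold change was 0.18 ± 0.22, with a 95% interval of -0.30 to 0.65. A rise of 1 log2 unit in M1 lies outside the intervals of both genes. Psme2 shares reads with its near copy Psme2b, at 40.8 to 112 CPM, and how salmon divided them between the 2 genes cannot be checked here.

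The other activators were low and not called in M1. Psme3 was 23.1, 26.0 and 28.7 CPM in M0 and 34.0, 27.0 and 23.7 CPM in M1. Psme4 was 10.3, 6.96 and 6.83 CPM in M0 and 13.1, 8.34 and 8.26 CPM in M1. In both genes the groups overlapped, and the highest M1 value came from replicate 1.

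The 3 catalytic β subunits cut after different residues: Psmb5 (β5) has chymotrypsin-like, Psmb6 (β1) caspase-like and Psmb7 (β2) trypsin-like activity. Psmb5 was 160.4, 300.3 and 251 CPM in M0 and 283, 396 and 441 CPM in M1, so that M1 replicate 1 lay below M0 replicate 2. Its log2 fold change was 0.65 ± 0.22, with an adjusted p of 0.0616. Psmb7 was 71.7, 124 and 115 CPM in M0 and 143, 156 and 155 CPM in M1 without overlap. Its log2 fold change was 0.55 ± 0.18, with an adjusted p of 0.0605. Both genes missed the threshold here and passed it with DESeq2, at adjusted p of 0.0422 and 0.0386, where 16.8% of all genes were called. Without M0 replicate 1 the log2 fold changes were 0.41 and 0.31, with adjusted p of 0.228 and 0.206. Psmb6 was 1324, 1215 and 1519 CPM in M0 and 1622, 1250.0 and 1186 CPM in M1, with a 95% interval of -0.66 to 0.66 for the difference. Psmb6-ps and Psmb6-ps2, pseudogene copies of Psmb6, held 1 to 957 counts per library, so a small part of its reads may have been assigned elsewhere. The immune counterparts were not called in M1 either: Psmb8 was at 0.43 ± 0.17, Psmb9 at -0.22 ± 0.19 and Psmb10 at -0.30 ± 0.16 (log2, SE).

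Of the remaining subunits, none was called in M1. The 4 structural β subunits ranged in log2 fold change from -0.07 for Psmb2 to 0.48 for Psmb3. The 6 ATPases ranged from -0.23 for Psmc3 to 0.47 for Psmc1. Psmc1 (Rpt2), whose tail helps to open the α ring, was 245, 305 and 325 CPM in M0 and 398, 423 and 388 CPM in M1 without overlap. It passed the p threshold, at an adjusted p of 0.0393, but its log2 fold change of 0.47 ± 0.14 was below 0.5. Psmd2 (Rpn1), a scaffold that binds ubiquitin shuttles, was 177, 230.1 and 248 CPM in M0 and 321, 365 and 334 CPM in M1, with a log2 fold change of 0.64 ± 0.25 and an adjusted p of 0.111. Psmd3 (Rpn3), a lid scaffold subunit, was 46.4, 70.6 and 60.0 CPM in M0 and 65.9, 131 and 115 CPM in M1. Its groups overlapped, since M1 replicate 1 lay below M0 replicate 2, and its adjusted p was 0.138. Psmd14 (Rpn11), the deubiquitinase of the lid, was at 0.19 ± 0.22. Pomp, which assembles new core particles, was 714, 576 and 666 CPM in M0 and 689, 537 and 472 CPM in M1, with overlap and a log2 fold change of -0.20 ± 0.27. Psmc1, Psmc3, Psmd2, Psmd14, Psma1, Psma7, Psmb2 and Psmb3 were named after their values were seen.

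Same-numbered M0 and M1 libraries deviated together with r of only 0.21 to 0.29, and the labels state no pairing. With the replicate number as a block in the 6 libraries compared, 4 of the 36 genes were called in M1, against 16.9% of the 15342 genes tested in that fit. They were Psma6, Psmb5, Psmd2 and Psmd3, all higher. In that fit the log2 fold changes of Psmb5, Psmd2 and Psmd3 were 0.63, 0.60 and 0.73, with adjusted p of 0.0331, 0.0398 and 0.0285. With the block in the model of all 15 libraries only Psma6 was called, against 12.7% of all genes tested. Without overlap between M1 and M0 stood 8 of the 36 genes (Psmd1, Psmc3, Psmb7, Psme1, Psmb3, Psmc1, Psma6 and Psmd2), against 32.2% of all genes tested. In replicate 1 of both groups the deviation from the group mean fell with the GC content of the transcript, with Spearman's rho of -0.27 in M0 and -0.40 in M1 across 15111 genes, while rho was 0.30 in M0 replicate 2 and 0.29 in both other M1 libraries. With transcript length rho lay between -0.35 and 0.32 in these 6 libraries. The transcripts of Psmb5 and Psmd3 are 56.6% and 58.3% GC, and the part of GC content in their values was not tested.

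**Figure D3:**
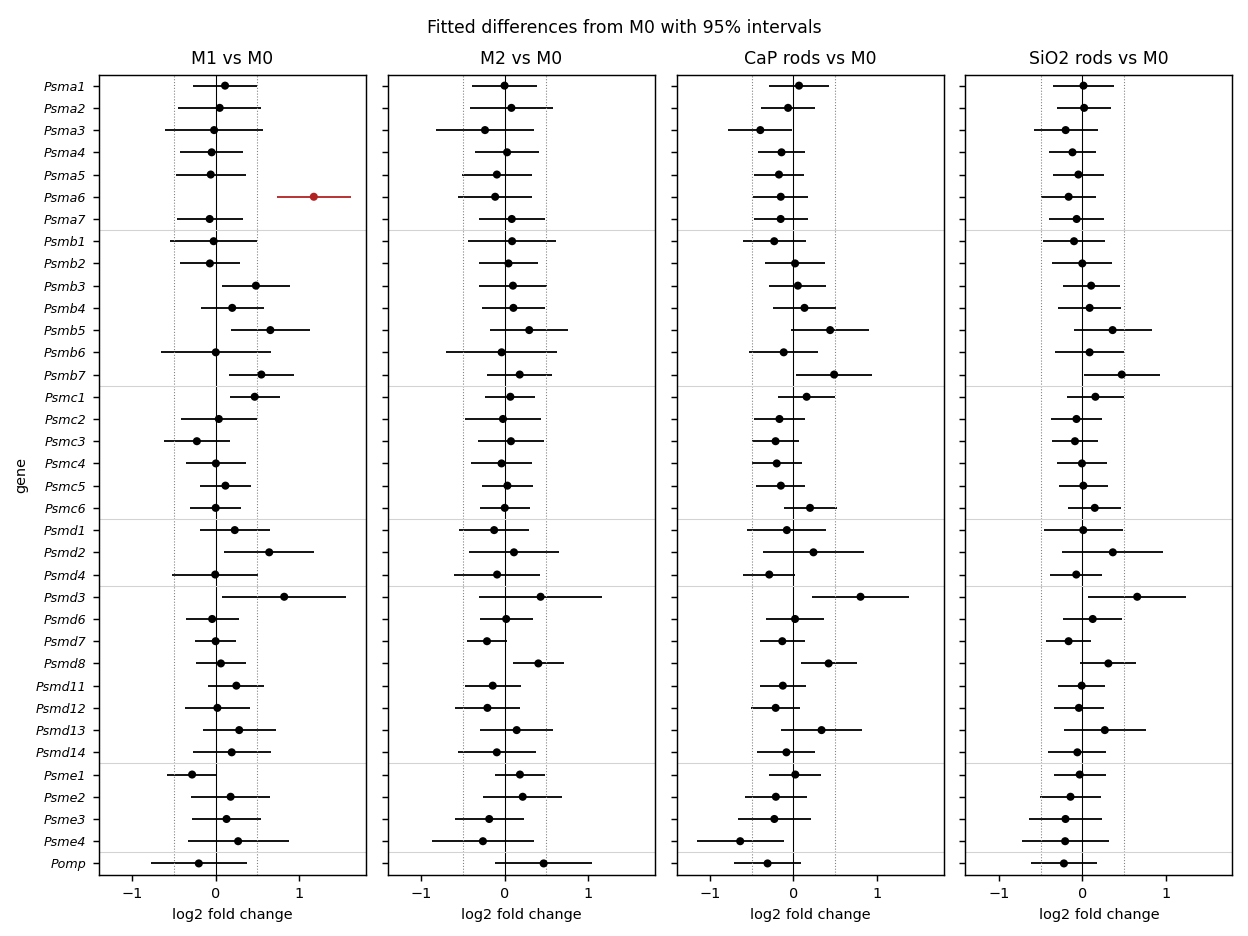
Fitted log2 fold change (x axis, points) with its 95% interval (lines) for each of the 36 genes (y axis) in M1, M2, CaP rods and SiO2 rods, each against M0; dotted lines mark 0.5 in each direction and red marks a called gene. Psma6 in M1 is the only called gene, and the panels share the M0 libraries.

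The comparison of M2 with M0 asks what IL-4 did. None of the 36 genes was called by edgeR or DESeq2 and 1, Psmd8, had an unadjusted p below 0.05, whereas 4.13% of all genes tested were called by edgeR and 5.97% by DESeq2, and 17.2% had such a p. The median log2 fold change was 0.03 against 0.07 over all genes, and 34 of 36 intervals lay within 1 log2 unit. The largest fitted rise was that of Pomp, at 681, 1388 and 638 CPM in M2, where replicate 2 stood far above the others and the log2 fold change was 0.47 ± 0.27 with an adjusted p of 0.412. Without M2 replicate 2 it was 0.018. The largest fitted fall was that of Psme4, at 6.14, 10.3 and 5.19 CPM and a log2 fold change of -0.26 ± 0.29. The catalytic subunits stood at 316, 313 and 244 CPM for Psmb5, 941, 2209.7 and 809 CPM for Psmb6 and 122, 106 and 124 CPM for Psmb7. In Psmb6 replicate 2 was again highest, and in each of these genes M2 overlapped M0. Psme2, at 460.2, 789.8 and 438 CPM, and Psme3, at 22.5, 23.3 and 22.5 CPM, also overlapped M0.

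M2 replicate 2 was the highest of its group for 26 of the 36 genes, and M2 replicate 3 the lowest for 33. Their totals were 8594947 and 68750050 counts, and the part of depth in this split was not tested. Averaged over the 36 genes, log2 CPM relative to the M0 mean was -0.06, 0.32 and -0.22 in the 3 M2 libraries, while it was between -0.12 and 0.10 in the 6 rod libraries. Without M2 replicate 2, Psma3, another α subunit, was called lower in M2 than in M0, and Psme1 was called lower, and Psmb3 and Psma3 higher, in M1 than in M2.

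The rods were compared with M0 to see whether these genes differed after exposure to the particles. With CaP rods none of the 36 genes was called by edgeR or DESeq2 and 5 had an unadjusted p below 0.05 (Psmb7, Psmd8, Psmd3, Psme4 and Psma3), whereas 0.409% of the 16621 genes tested were called by edgeR and 4.05% by DESeq2, and 18.0% had such a p. With SiO2 rods none was called by either tool and 2 had an unadjusted p below 0.05 (Psmb7 and Psmd3), whereas 0.0602% of all genes tested were called by edgeR and 0.806% by DESeq2, and 9.27% had such a p. The median log2 fold change of the 36 genes was -0.12 with CaP rods, against 0.06 over all genes, and -0.01 with SiO2 rods, against -0.02. The 95% interval lay within 1 log2 unit for 34 genes with CaP rods, all but Psmd3 and Psme4, and for 35 with SiO2 rods, all but Psmd3. No overlap with M0 was found for 7 genes with CaP rods, against 17.4% of all genes tested, and for 5 with SiO2 rods, against 18.0%.

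Psmd3 had the largest fitted rise with both rods. It was 66.1, 116 and 126 CPM with CaP rods and 96.8, 105 and 77.3 CPM with SiO2 rods, against 46.4, 70.6 and 60.0 CPM in M0. CaP replicate 1 lay within the M0 range and the other 5 rod libraries above it. The log2 fold changes were 0.80 ± 0.26 and 0.66 ± 0.26, with adjusted p of 0.167 and 0.496. Without CaP replicate 1 the gene was called higher with CaP rods, at 1.02 and an adjusted p of 0.0377. Psmd3 was also the gene that ran most against the others from well to well. Psmd8, another lid subunit, was 264, 374 and 344 CPM in M0 and 312, 366 and 346 CPM in M1. It was 457, 432 and 411 CPM in M2. With the rods it was 449, 415 and 452 CPM (CaP) and 424, 403 and 393 CPM (SiO2). All libraries of M2 and both rods lay above M0, of which replicate 1 held the lowest value. Its log2 fold changes against M0 were 0.40 in M2 and 0.42 with CaP rods, with edgeR adjusted p of 0.14 and 0.19. In M1 against CaP rods it had the largest fitted fall, at -0.36.

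Psme4 had the largest fitted fall with CaP rods. It was 5.15, 6.44 and 4.44 CPM with CaP rods, below all 3 M0 libraries, and 6.85, 7.79 and 6.78 CPM with SiO2 rods. The log2 fold changes were -0.64 ± 0.23 and -0.21 ± 0.23, with adjusted p of 0.203 and 0.861. Without M0 replicate 1 the former was -0.42, with an adjusted p of 0.492. Psme4 has the longest transcript of the 36 genes, at 6491 bases, and Spearman's rho of the deviation from the group mean with transcript length was -0.51 and 0.57 in CaP replicates 1 and 2 and -0.47 and 0.42 in SiO2 replicates 1 and 2, across 15111 genes. The part of length in its values was not tested. M1 exceeded CaP rods by 0.91 ± 0.28 for this gene, with an adjusted p of 0.0508, which misses the threshold, and the gene was called with DESeq2, as were 14.5% of all genes.

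None of the catalytic subunits was called with either rod. Psmb5 was 321, 312 and 332 CPM with CaP rods and 289, 338 and 289 CPM with SiO2 rods. Psmb6 was 1609, 1101 and 1033 CPM with CaP rods and 1466, 1321 and 1525 CPM with SiO2 rods. Psmb7 was 135, 150.1 and 150.5 CPM with CaP rods and 142, 157 and 132 CPM with SiO2 rods, above all 3 M0 libraries in both cases. Its log2 fold changes of 0.49 ± 0.20 and 0.47 ± 0.20 share the M0 libraries, of which replicate 1 held the lowest value, and neither passed the threshold. Without M0 replicate 1 they were 0.25 and 0.25. Pomp was 671, 477 and 430.0 CPM with CaP rods and 560.0, 536 and 583 CPM with SiO2 rods, and overlapped M0 in both. Psme1 was 159.9, 147 and 150.3 CPM with CaP rods and 150.5, 152 and 138 CPM with SiO2 rods, within the M0 range. Psme2 was 529.7, 361 and 363 CPM and 455, 417 and 444 CPM, and all 3 SiO2 libraries lay below M0. Psme3 was 22.3, 26.0 and 18.1 CPM and 18.3, 24.9 and 24.3 CPM, with overlap.

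CaP and SiO2 rods were given at the same mass concentration and for the same time. The paper states that their densities differ, so that an equal mass concentration holds different numbers of rods. Between them none of the 36 genes was called by edgeR or DESeq2 and 0 had an unadjusted p below 0.05. Of all genes tested, 0.0241% were called by edgeR and 0.0963% by DESeq2, and 1.87% had such a p. The median log2 fold change was -0.08 against 0.03 over all genes. All 36 intervals lay within 1 log2 unit, and the fitted differences ranged from -0.43 for Psme4, with an interval of -0.95 to 0.09, to 0.15 for Psmd3, with an interval of -0.43 to 0.72. For the catalytic subunits the intervals were -0.39 to 0.54 for Psmb5, -0.62 to 0.21 for Psmb6 and -0.44 to 0.47 for Psmb7.

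From well to well within a group, the 36 genes had a median SD of 0.22 on the log2 scale against 0.38 over all genes tested, which were not matched on level. The SD ranged from 0.067 for Psmd7 to 0.48 for Psmd3, and that of Psmb6, at 0.41, was also above the median of all genes. Over the 15 libraries, the deviations from the group means correlated with a median Pearson's r of 0.51 over the 630 pairs of genes, of which 484 were positive. These points share their libraries, scaling and depth, so r is given as a description. Psma5 and Psma6 followed the others most closely, with a mean r of 0.60 and 0.59. Psmd3 and Psmd2 ran the other way, with a mean r of -0.40 and -0.13. Psmd2 was 286, 189 and 231 CPM in M2 and 149, 320.1 and 304 CPM with CaP rods, and its lowest library of both groups was the highest of its group for 26 and 23 of the 36 genes.

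Of 28 other genes of the pathway, fixed by function, 25 were tested: further lid and base subunits, assembly chaperones, deubiquitinases, ubiquitin shuttles and the genes that control proteasome transcription. In M1, 2 were called higher and 1 lower, all of them from the last group. These 3 of 25 genes stand beside 14.1% of all genes tested, so their number is near the background. Nfe2l1 encodes NRF1, a factor made in the endoplasmic reticulum membrane that is released when proteasome activity falls short. It was 10.6, 16.9 and 13.4 CPM in M0 and 28.0, 43.1 and 42.4 CPM in M1, without overlap. The log2 fold change was 1.48 ± 0.26 with an adjusted p of 0.00151. Ngly1, the glycanase that removes sugars from NRF1, was 4.08, 3.38 and 5.44 CPM in M0 and 9.37, 7.45 and 7.58 CPM in M1, a rise of 0.95 ± 0.24 on the log2 scale with an adjusted p of 0.0157. Ddi2, the protease that cuts NRF1 into its active form, was 85.4, 57.8 and 62.9 CPM in M0 and 28.4, 34.4 and 32.1 CPM in M1, a change of -1.12 ± 0.23 with an adjusted p of 0.00471. The groups did not overlap for any of the 3. Without M0 replicate 1, M0 replicate 2 or M1 replicate 1 the adjusted p of Ngly1 was 0.0655, 0.0663 and 0.0580, and the call was lost.

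**Figure D4:**
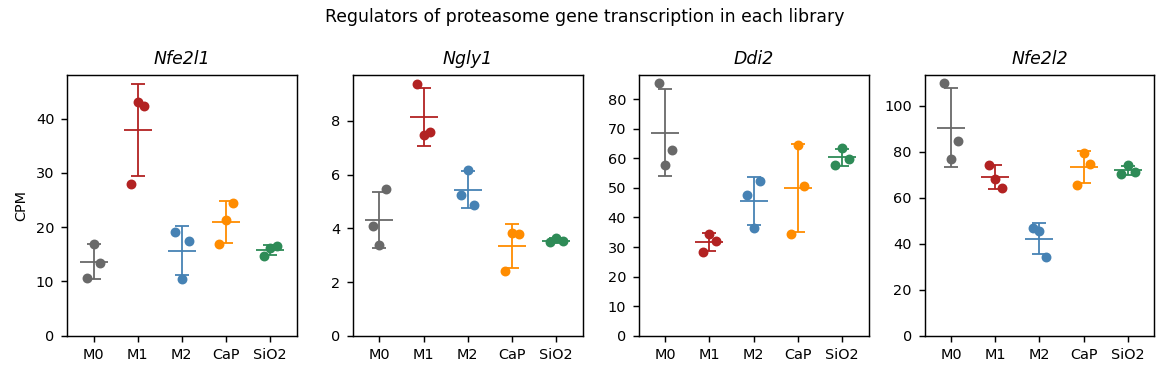
CPM (y axis, from 0) of 4 genes that control proteasome transcription in each library (points) of the 5 groups (x axis), with the mean and SD of the 3 libraries. Nfe2l1 and Ngly1 are highest and Ddi2 lowest in M1, and Nfe2l2 is lowest in M2.

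With rods, none of the 25 genes was called by edgeR or DESeq2. Over all genes tested, edgeR called 0.409% with CaP rods and 0.0602% with SiO2 rods, and DESeq2 called 4.05% and 0.806%. An unadjusted p below 0.05 was found for 2 of the 25 genes with CaP rods and 0 with SiO2 rods. Over all genes tested these shares were 18.0% and 9.27%. Nfe2l1 was 17.0, 21.4 and 24.5 CPM with CaP rods, above M0 in all 3 libraries, with a log2 fold change of 0.62 ± 0.22 and an adjusted p of 0.188. With SiO2 rods it was 14.7, 16.2 and 16.6 CPM. In M2, 1 of the 25 genes was called, against 4.13% of all genes tested. Nfe2l2, which encodes NRF2, was 109.8, 76.8 and 84.6 CPM in M0 and 46.7, 45.4 and 34.4 CPM in M2, a log2 fold change of -1.11 ± 0.17 with an adjusted p of 0.00192; it was named after its values were seen.

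Neither of the 2 complexes chosen for comparison held a called gene in M1, where 14.1% of all genes tested were called and 27.7% had an unadjusted p below 0.05. The COP9 signalosome, whose subunits resemble the lid, had 0 of 8 genes called by edgeR and 1 by DESeq2, with 2 at an unadjusted p below 0.05 and a median log2 fold change of 0.01. The CCT chaperonin had 0 of 8 called by either tool, with 3 at an unadjusted p below 0.05, all 8 fitted above 0 and a median of 0.24. Against these, the median of the 36 proteasome genes in M1 was 0.05, and no complex was tested against another.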

How the data were processed

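Per the labels, polyadenylated RNA was made into Smart-seq2 libraries. Per the study's methods and the submitters' processing notes, reads were processed by the authors with the nf-core/rnaseq pipeline, STAR and salmon, against GRCm39 with an Ensembl annotation. The deposited table holds whole-number counts per gene for 15 libraries, none normalized, and every column of per-sample values was used (0 left out). Smart-seq2 marks neither strand nor molecules, so reads of overlapping genes cannot be told apart and counts are of amplified reads. Library totals were 8459643 to 68750050. Between wells of 1 group the chi-square per gene was 7.55 to 152, so the spread between wells exceeded counting error.

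From the counts, genes were filtered by filterByExpr, which left 16654 genes in the model of 15 libraries and 16621 in that of the 9 M0 and rod libraries. They were tested with edgeR 4.0.16 (quasi-likelihood, trimmed mean of M values, Benjamini-Hochberg) in R 4.3.3, with the study's thresholds. The two-sided tests of M1 and M2 used all 15 libraries, and those of rods against M0 and each other used 9, as the study did. CPM used scaled library sizes, and CPM per kb used 1 GENCODE transcript per gene. DESeq2 1.42.0 was an alternative, beside other scalings, filters, models, depths and libraries left out.

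The members, gene lists and motifs were chosen with earlier results of these data known. The 4 activators, the 3 catalytic subunits, Pomp and called members are given with their level in every library. So are the genes with the largest fitted rise and fall in each comparison, for the groups compared. The largest falls in M1 against M2 and against SiO2 rods were those of Pomp, at -0.67, and Psme1, at -0.25 (log2). Further genes were named after their values were seen. Promoter windows, motif positions and the order of neighbouring genes come from RefSeq (GRCm38.p6). The labels number the libraries of each group from 1 to 3. Deviations from the group means of same-numbered M0 and M1 libraries correlated with r of 0.21 to 0.29 (3 pairs, each over 0.1). From the data alone, the number was therefore used as a block in an alternative fit of the 6 libraries compared. Libraries with different numbers reached an r of 0.73 (M0 replicate 3 and SiO2 replicate 2), so these r do not establish that the numbers mark pairs. The main test of M1 against M0 had no block and did not use the pairing. In the 7 other comparisons at least 1 pair was below 0.1.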

Additional observations from a re-analysis of the deposited data

How the results depend on the processing

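Of 121 counts of called members under other settings, 106 were within 1.5 times the count reported. None of the single-gene results followed through these settings changed sign. Other results named above, among them those of Psma7, Psmb2 and Psmb6 in M1, were not followed. For M2 and both rods against M0, and for CaP against SiO2 rods, the count reported was 0. A count that stayed at 0 was scored as the same there, and with rods few of all genes tested were called by edgeR in any case. For M1 against M0, where 1 member was called, 3 were called with DESeq2 (Psma6, Psmb5 and Psmb7), 2 with no filter on low counts (Psmd3 added), 2 with no fold threshold (Psmc1 added) and 4 with the replicate block in the 6 libraries compared, a fit chosen after seeing the data. Leaving out 1 library gave 1 to 3 calls: Psmb5 and Psmb7 were added without M0 replicate 2, Psmc1 without M0 replicate 3 and Psmb5 without M1 replicate 1. For M1 against M2, where 1 was called, 2 were called with no filter (Pomp lower) and 2 with no fold threshold (Psme1 lower), and leaving out 1 library gave 1 to 4 calls, the highest without M2 replicate 2. For M1 against CaP rods, 2 were called in place of 1 with DESeq2, with a minimum of 10 counts asked of each library and with the replicate block in all 15 libraries (Psme4 added each time). Leaving out 1 library gave 0 to 1 calls for M2 against M0 (Psma3 lower without M2 replicate 2) and 0 to 1 for CaP rods against M0 (Psmd3 higher without CaP replicate 1). The replicate block changed no other count. Apart from DESeq2 and the block fits of M1 against M0, no share over all genes is given for these settings. Those counts can therefore not be set against a background. In the other 7 comparisons at least 1 same-numbered pair had an r below 0.1. The causes were not tested, except that the setting with no fold threshold adds genes by its construction. Nfe2l2 in M2 kept its call in all settings but the model of only the 6 libraries compared (adjusted p = 0.134), and Ngly1 in M1 lost its call in 6 of 16. Among the members counting error was largest for Psme4, with 59 to 392 counts per library.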

Other observations

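Psmg2, which encodes an assembly chaperone of the core particle, was high in 3 libraries of 3 different groups: 463, 637 and 566 CPM in M0 replicate 1, CaP replicate 2 and SiO2 replicate 2. In the other 12 libraries it lay between 75.1 and 117 CPM. It was not called in any of the comparisons with M0, where its SE was 0.88 to 1.03 on the log2 scale. Psmg2 was singled out after its values were seen.

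Of the 3 immune catalytic subunits, 2 were called lower in M1 than in M2, where 16.1% of all genes tested were called. Psmb9 was 31.0, 31.2 and 32.0 CPM in M1, 50.1, 57.8 and 44.6 CPM in M2 and 27.9, 47.0 and 34.6 CPM in M0, and M1 was lower than M2, at -0.69 ± 0.19 (log2, SE) with an adjusted p of 0.0266 by edgeR. Psmb10 was 121, 134 and 131 CPM in M1, 214, 226 and 180.3 CPM in M2 and 134, 184 and 158 CPM in M0, and M1 was lower than M2, at -0.68 ± 0.16 with an adjusted p of 0.00925. Psmb8 was 271, 303 and 302 CPM in M1, 233, 283 and 189.9 CPM in M2 and 176, 241 and 234 CPM in M0. It was not called in either comparison, at 0.31 ± 0.17 against M2 and 0.43 ± 0.17 against M0, with adjusted p of 0.234 and 0.115. Psmg1, the partner chaperone of Psmg2, was also lower in M1 than in M2, at -0.55 ± 0.17 with an adjusted p of 0.0377.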
